A study of Mus musculus with 9 samples.

Results

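The 10 genes described here make or repair DNA strand breaks, or mark and read them: the type II topoisomerases Top2a and Top2b, the poly(ADP-ribose) polymerases Parp1 and Parp2, the glycohydrolase Parg, the histone variant gene H2afx, its reader Mdc1, the scaffold gene Xrcc1 and the Ku genes Xrcc5 and Xrcc6. They were taken by gene name from a table of 38685 genes and loci, in which each of the 10 had 1 row. Testis RNA of C57BL/6 males was compared between 3 libraries labelled wildtype (Prm2+/+), 3 heterozygous (Prm2+/-) and 3 Prm2-deficient (Prm2-/-). According to the study, the lines were made by CRISPR/Cas9 editing of Prm2, the gene of protamine-2, in oocytes. Which line, which deletion and what age the males of these libraries had is not given in the labels. The study described Prm2+/- males as fertile and Prm2-/- males as infertile, with damaged sperm DNA. It found a mark of oxidative DNA damage in Prm2-/- sperm of the epididymis. Mature spermatids in the testis stained negative for that mark in all genotypes. The comparison asks whether transcripts of the break machinery differed in the testis.

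During spermiogenesis, nucleosomes are replaced by transition proteins and then by protamines. The torsion released by the loss of nucleosomes is relieved by type II topoisomerases, which pass 1 DNA duplex through a transient double-strand break in another, and elongating spermatids are known to carry such breaks. PARP enzymes bind broken DNA and build chains of ADP-ribose on proteins, PARG takes these chains down, phosphorylated H2AX marks the chromatin around a double-strand break and MDC1 binds this mark. XRCC1 assembles the enzymes that close single-strand breaks, whereas the Ku heterodimer of XRCC5 (Ku80) and XRCC6 (Ku70) holds double-strand ends for end joining.

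Values are normalized counts, namely gene-level counts that the authors divided by 1 size factor per library. The counts before this division summed to between 3629929 and 4490411 per library. Differences are given as log2 fold change (LFC) on the scale of log2(normalized count + 1), fitted with limma to 14893 genes with enough counts and all 9 libraries, and a gene was called at an adjusted p (Benjamini-Hochberg over these genes) under 0.05 and an LFC beyond 0.5. The study calls the 3 libraries of a genotype biological replicates. The labels number them and do not say that they came from separate males, so p-values measure the spread between these samples. The Prm2 transcript itself did not check the labels: its normalized count averaged 33046 ± 5732 (Prm2+/+), 31891 ± 2287 (Prm2+/-) and 37810 ± 4344 (Prm2-/-; SD, n = 3 each; adjusted p = 0.746 in limma for Prm2-/- against Prm2+/+). Genotypes are therefore those of the labels. Replicate 3 of Prm2+/+ stood apart, with 34 genes at 0 only there that had at least 40 counts in each of the other 8 libraries, against 0 to 3 such genes in any other library. Elongating spermatid markers (Prm1, Tnp1, Tnp2, Odf1, Akap4 and Gapdhs) summed to between 196586 and 218478 normalized counts in the 9 libraries and spermatocyte markers to between 4845 and 6088. Such sums follow their highest genes, here mostly Prm1 and Tnp1, and do not show that each marker was steady. Akap4, named after its values were seen, had 208 and 194 in replicates 1 and 3 of Prm2+/+. It had 272 in replicate 3 of Prm2+/- and between 1910 and 2148 elsewhere. Among the 5 Sertoli cell markers Amh was listed at 0 in all 9 libraries, and over the 9 marker lists the sums in Prm2-/- overlapped those in Prm2+/+. Single markers did not all overlap, and the next are named after their values were seen. The peritubular markers Acta2 (mean 178 against 215) and Cnn1 (15.9 against 27.7) lay lower in Prm2-/- throughout. Of the other peritubular markers, Myh11 overlapped. Des overlapped too, with a higher mean in Prm2-/- (21.1 against 11.1), and was listed at 0 in replicates 2 and 3 of Prm2+/+. Tnp1 also lay lower throughout, while the other elongating spermatid markers overlapped. Piwil1 and Gata4 lay higher throughout. Gata4 was listed at 0 in replicates 1 and 3 of Prm2+/+ and in replicates 2 and 3 of Prm2+/-. Of all tested genes, 14.0% did not overlap in this comparison.

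None of the members was called in any comparison. Between Prm2-/- and Prm2+/+, limma called 0 of the 9 members that could be tested, where 0.181% of all tested genes were called, and 0 members had an unadjusted p under 0.05, where 7.33% of all genes had one. Between Prm2+/- and Prm2+/+ the members again gave 0 calls and 0 unadjusted p under 0.05, beside 0.0806% and 4.24% of all genes. Between Prm2-/- and Prm2+/- they gave 0 and 0, beside 0.175% and 5.44%. The edgeR and DESeq2 tests on the recovered counts also called 0 members and found 0 with an unadjusted p under 0.05 in each of the 3 comparisons. Against Prm2+/+, 6 members had a higher and 3 a lower fitted mean in Prm2-/-, with a median LFC of 0.11 beside 0.02 over all tested genes. The corresponding medians were 0.05 beside 0.01 for Prm2+/- against Prm2+/+, and 0.04 beside -0.01 for Prm2-/- against Prm2+/-. In whole testis, fewer cells of a type and less RNA per cell cannot be told apart, and this holds for each value below.

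The intervals show how large a difference the 9 libraries leave possible. For Prm2-/- against Prm2+/+, the 95% interval of the LFC lay within a 2-fold change in either direction for 8 of the 9 members, and within a 1.5-fold change for 5: Top2a, Top2b, Parp1, H2afx and Xrcc1. Mdc1, Xrcc5 and Xrcc6 had intervals that reached past 1.5-fold, and that of Parp2 reached past 2-fold. The same 8 members had intervals within 2-fold in the other comparisons. The standard error of the LFC had a median of 0.139 over the members and 0.246 over all tested genes.

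**Figure D1:**
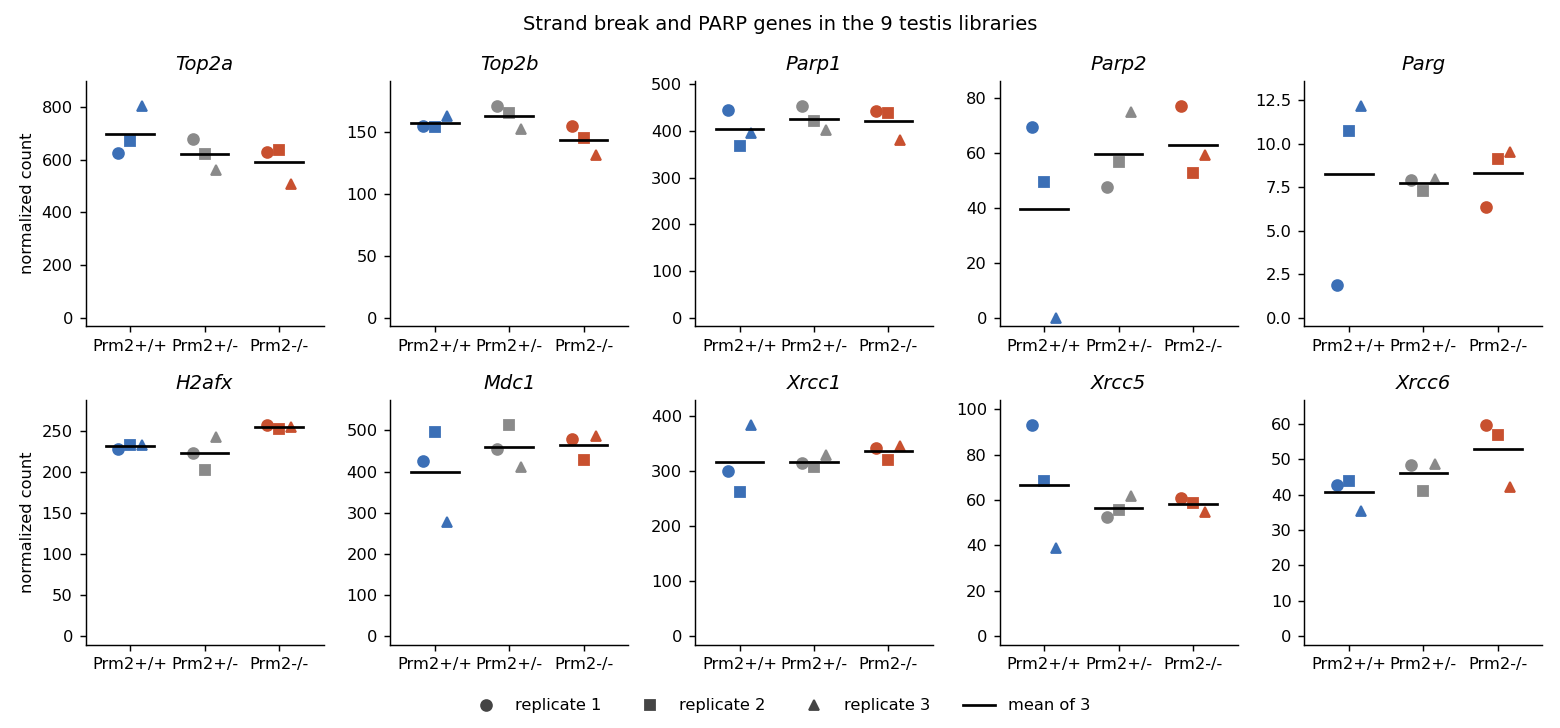
Normalized counts (y axis, linear, from 0) of the 10 members in the 3 libraries of each genotype (x axis), with 1 point per library and a bar at the mean of 3. The genotypes overlap in 9 of the 10 panels for Prm2-/- against Prm2+/+, H2afx is the exception, and Parp2 is listed at 0 in replicate 3 of Prm2+/+.

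The members' levels were ordered per kilobase of merged exon, from GENCODE M21. This scale divides by length although the libraries were primed at the 3′ end, so it is a rough order and not a count of molecules. The order depends on that division. Without it, H2afx averaged 236 normalized counts over the 9 libraries, below Top2a (637), Mdc1 (441), Parp1 (417) and Xrcc1 (323). Per kilobase, H2afx was highest with 171 ± 12.6 normalized counts (SD over 9 libraries). Then came Parp1 with 78.7 ± 5.81, Top2a with 70.7 ± 9.10, Mdc1 with 59.4 ± 9.54 and Xrcc1 with 55.5 ± 5.80. The neighbours among these 4 overlapped in range, and each order between neighbours held in 7 of 9 libraries. Xrcc5 followed with 23.7 ± 5.76, below Xrcc1 in 9 of 9 libraries, and overlapped Parp2 in range. Parp2 had between 0 and 21.2, Top2b 10.6 ± 0.791 and Xrcc6 10.4 ± 1.74. On this scale Top2b and Xrcc6 did not differ beyond their spread, with Top2b ahead in 5 of 9 libraries. That too rests on the division. Without it, Top2b had between 132 and 171 normalized counts. This was above Xrcc6 (35.4 to 59.8), Xrcc5 (38.7 to 93.1) and Parp2 (0 to 77.0). Parg was lowest with 1.40 ± 0.507 per kilobase. The ranges of neighbours were apart at 3 steps of this order, namely below H2afx, below Xrcc1 and above Parg.

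**Figure D2:**
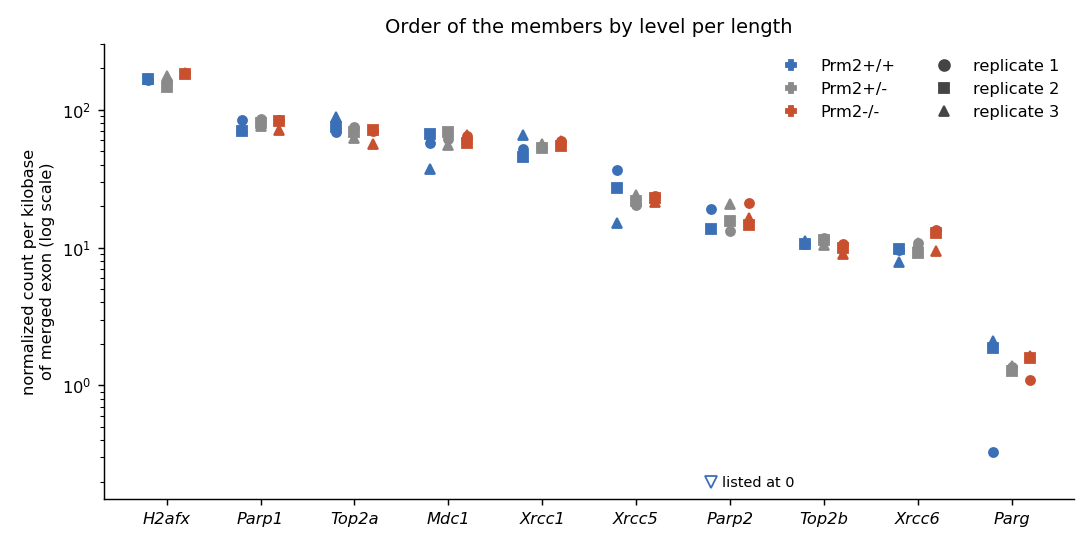
Normalized count per kilobase of merged exon (y axis, log scale) of the 10 members in order of their mean, with 1 point per library, coloured by genotype and shaped by replicate number. H2afx lies above, and Parg below, every value above 0 of the other members, and the open triangle marks the library in which Parp2 is listed at 0 and has no place on a log axis.

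Top2a, the topoisomerase II of dividing cells, is a minus-strand gene of 36 merged exons on chromosome 11, at 98992943 to 99024189 (GRCm38, as for all positions here). It had 623, 672 and 802 normalized counts in Prm2+/+, 677, 623 and 559 in Prm2+/- and 630, 638 and 506 in Prm2-/-. The highest value was that of replicate 3 of Prm2+/+ and the lowest that of replicate 3 of Prm2-/-, and the genotypes overlapped. The means were 699 ± 92.5, 620 ± 59.0 and 591 ± 74.3 (SD, n = 3 each), and the LFC of Prm2-/- against Prm2+/+ was -0.24 (95% interval -0.56 to 0.08, adjusted p = 0.733 in limma). Without replicate 3 of Prm2+/+ it was -0.14. Over the 9 libraries Top2a had a coefficient of variation of 12.9%, where counting alone would give 3.93%, if the counts stand for reads.

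Top2b, the isoform that does not depend on division and the one described in elongating spermatids, lies on chromosome 14 from 16365179 to 16435462 on the plus strand, in 35 merged exons, and overlaps Rarb on the opposite strand. The counting is not stated to have used strand, so reads of overlapping genes on opposite strands cannot be told apart. It had 155, 154 and 164 normalized counts in Prm2+/+, 171, 165 and 153 in Prm2+/- and 155, 145 and 132 in Prm2-/-. The values of Prm2-/- reached from the lowest of the 9 into the range of Prm2+/+. With means of 158 ± 5.16, 163 ± 9.29 and 144 ± 11.5 (SD, n = 3 each), the LFC was -0.13 for Prm2-/- against Prm2+/+ (95% interval -0.37 to 0.11, adjusted p = 0.758 in limma) and -0.18 for Prm2-/- against Prm2+/- (-0.42 to 0.06, adjusted p = 0.963 in limma). The spread of Top2b over the 9 libraries, 7.46%, was about that of counting alone, 7.96%.

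The 2 topoisomerase genes ran partly in parallel between libraries: Pearson's r of log2(normalized count + 1) was 0.71 over the 9 libraries and 0.74 without replicate 3 of Prm2+/+. The points share library and scaling, and r is given as a description. Within a library, the difference Top2a minus Top2b on this log2 scale, which is not per length and serves only to compare libraries, was 2.13 ± 0.144 in Prm2+/+, 1.92 ± 0.0578 in Prm2+/- and 2.03 ± 0.0999 in Prm2-/- (SD, n = 3 each). Their promoters are shown because inverted CCAAT boxes, the letters that the factor NF-Y binds, are a known feature of the Top2a promoter. Whether the promoters bear on the likeness of the 2 genes was not tested. Each sequence is from RefSeq on GRCm38.p6 and runs 5′ to 3′ along the gene from 250 bases before its start to 50 after it. CCAAT and its reverse complement ATTGG are in capitals. Top2a is at chr11:99024140-99024439 on the minus strand and Top2b at chr14:16364956-16365255 on the plus strand.
Top2a promoter: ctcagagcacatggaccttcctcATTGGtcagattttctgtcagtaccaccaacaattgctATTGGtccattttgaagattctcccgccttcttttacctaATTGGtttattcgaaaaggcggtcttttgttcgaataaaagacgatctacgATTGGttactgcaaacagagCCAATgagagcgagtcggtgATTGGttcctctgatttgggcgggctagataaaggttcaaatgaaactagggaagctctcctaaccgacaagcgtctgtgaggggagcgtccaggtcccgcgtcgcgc
Top2b promoter: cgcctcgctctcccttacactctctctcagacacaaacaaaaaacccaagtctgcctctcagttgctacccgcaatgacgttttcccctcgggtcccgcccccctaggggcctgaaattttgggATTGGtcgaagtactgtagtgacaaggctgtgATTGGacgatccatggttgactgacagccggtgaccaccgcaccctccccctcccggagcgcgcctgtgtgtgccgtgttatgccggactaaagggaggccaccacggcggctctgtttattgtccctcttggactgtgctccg
The Top2a window held 6 such boxes, 1 as CCAAT and 5 as ATTGG, and the Top2b window held 2, both ATTGG. Of 32544 distinct promoter windows of the same length, 37.4% held at least 1, 11.6% at least 2 and 0.0799% (26 windows) at least 6. Windows were found for 9 of the 10 members, all but H2afx, with 2 for Parg. Of these 10 windows 6 held CCAAT or ATTGG, and 6 held GGGCGG or CCGCCC (the GC box), which 35.9% of all windows hold. TATAAA or its reverse complement (13.6% of windows) and the E2F letters TTTCGCGC or GCGCGAAA (0.326%) were in 0 of the 10. These are matches of letters and not bound sites.

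Parp1, the main enzyme of break-induced ADP-ribosylation, lies on chromosome 1 from 180568924 to 180601254 on the plus strand, in 23 merged exons. Its normalized counts were 445, 369 and 397 in Prm2+/+, 453, 422 and 403 in Prm2+/- and 444, 438 and 380 in Prm2-/-. No genotype stood apart, and the highest library exceeded the lowest by 1.23-fold. The means were 403 ± 38.5, 426 ± 25.2 and 421 ± 35.3 (SD, n = 3 each). The LFC was 0.06 for Prm2-/- against Prm2+/+ (95% interval -0.19 to 0.31, adjusted p = 0.892 in limma), 0.08 for Prm2+/- against Prm2+/+ and -0.02 for Prm2-/- against Prm2+/-.

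Parp2, whose enzyme shares the response to breaks with PARP1, lies on chromosome 14 from 50807841 to 50821301 on the plus strand, in 14 merged exons. It had 69.4 and 49.3 normalized counts in replicates 1 and 2 of Prm2+/+ and was listed at 0 in replicate 3. In Prm2+/- it had 47.5, 56.6 and 75.1, and in Prm2-/- 77.0, 52.8 and 59.1. Outside that 1 library the 8 values lay between 47.5 and 77.0, with a median of 57.9, where 3 counts in replicate 3 of Prm2+/+ would have been 3.31 normalized counts. The fitted LFC of Prm2-/- against Prm2+/+, 2.05 (95% interval -1.21 to 5.31, adjusted p = 0.751 in limma), rested on that library: without it the LFC was 0.09 (adjusted p = 0.955). Likewise the LFC of Prm2+/- against Prm2+/+ went from 1.97 to 0.0045. Parp2 was the only member with such a 2-level pattern, a gap of at least 2 on the log2 scale that was wider than 2 times the range on either side, which 10.4% of all tested genes showed.

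Of the neighbours of Parp2 on the chromosome, Ccnb1ip1 and Tep1 were also lowest in replicate 3 of Prm2+/+. Ccnb1ip1, the neighbour on the minus strand before Parp2, was listed at 0 there and had between 21.4 and 41.5 normalized counts elsewhere. Tep1, the next gene after Parp2 and on the minus strand, had 4.42 in that library and between 17.7 and 39.9 elsewhere. Rpph1, the RNA component of RNase P, had at most 2.11 in any library, too low to compare. The 3 tested genes most like Parp2 over the 9 libraries were Mks1 (Pearson's r 0.999), Bcar1 (0.996) and Polr2d (0.996). They were chosen for this likeness and lie low in the same library: Mks1 had 6.63 normalized counts in replicate 3 of Prm2+/+ and at least 70.2 elsewhere, while Bcar1 and Polr2d were listed at 0 there. Polr2d encodes a subunit of RNA polymerase II.

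**Figure D3:**
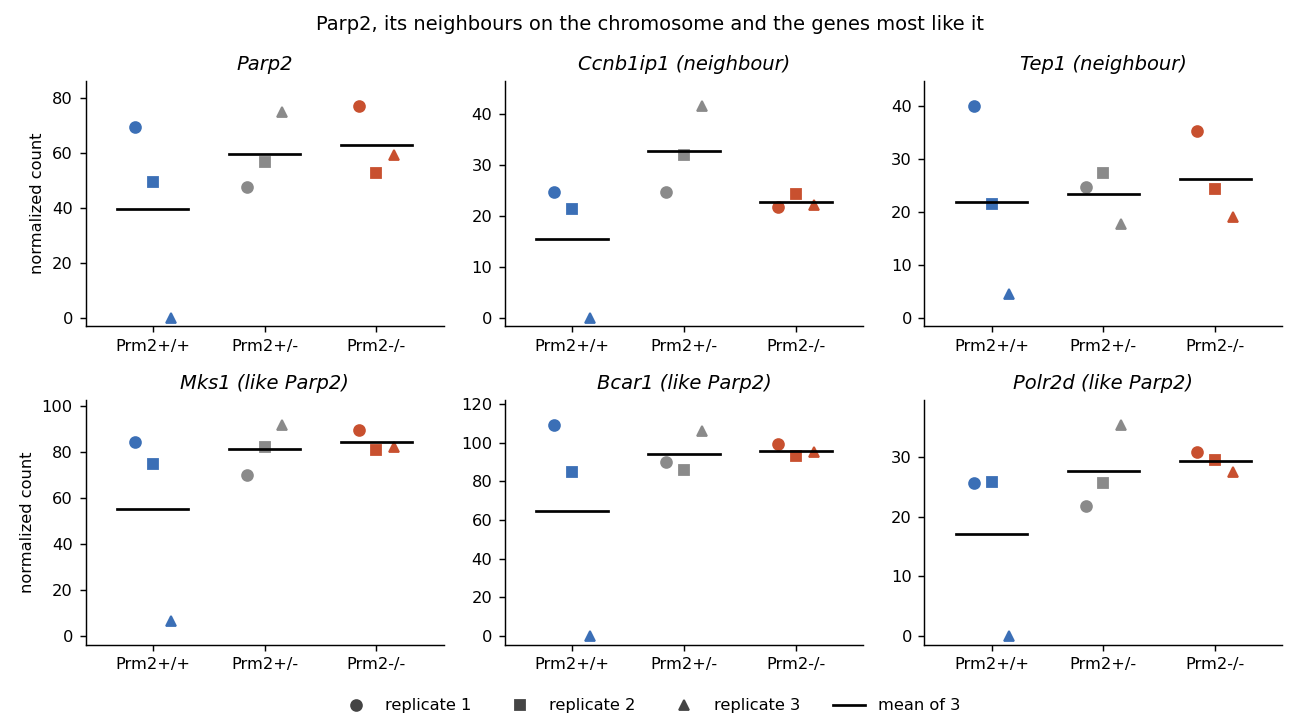
Normalized counts (y axis, linear, from 0) of Parp2, of its neighbours Ccnb1ip1 and Tep1 and of Mks1, Bcar1 and Polr2d in the 3 libraries of each genotype (x axis), with a bar at the mean of 3. In all 6 panels the lowest point is replicate 3 of Prm2+/+, which is at 0 for Parp2, Ccnb1ip1, Bcar1 and Polr2d.

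Parp2 and Rpph1 are known to be read in opposite directions from 1 shared promoter. In the GENCODE annotation the start of Parp2 lies 74 bp past the end of Rpph1. The RefSeq window of the Parp2 promoter is shown for this arrangement, at chr14:50807666-50807965 on the plus strand of GRCm38.p6, with the 102 bases that lie inside Rpph1 in capitals. It is set on the RefSeq start of Parp2, which lies further from Rpph1 than the GENCODE start.
Parp2 promoter: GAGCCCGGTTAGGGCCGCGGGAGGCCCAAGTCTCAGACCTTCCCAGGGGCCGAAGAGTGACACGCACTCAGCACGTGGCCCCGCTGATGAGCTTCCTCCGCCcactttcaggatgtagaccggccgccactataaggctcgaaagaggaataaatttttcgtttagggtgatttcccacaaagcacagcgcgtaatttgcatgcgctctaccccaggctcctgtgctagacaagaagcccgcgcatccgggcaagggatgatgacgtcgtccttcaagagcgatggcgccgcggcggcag
This window held 0 CCAAT boxes. Its GC content was 60.0%, beside 47.7% for the Top2a window and 58.3% for that of Top2b.

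Parg, which removes the polymer that the PARP enzymes make, lies on chromosome 14 from 32201949 to 32297550 on the plus strand. It was too low to be kept for the main fit, with 1.90, 10.7 and 12.2 normalized counts in Prm2+/+, 7.91, 7.31 and 7.95 in Prm2+/- and 6.34, 9.13 and 9.50 in Prm2-/-. Replicates 1 and 3 of Prm2+/+ held the lowest and the highest of the 9 values. These were between 2 and 11 counts a library, and their coefficient of variation of 36.1% was about the 35.1% of counting alone. A moderate difference could therefore not be told from counting error at this depth.

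H2afx, the gene of histone H2AX, lies on chromosome 9 from 44334694 to 44336077 on the plus strand as 1 exon. It is known to give both a polyadenylated mRNA and one with a histone stem-loop end, of which the library method, primed on poly(A), reads the former. It had 228, 233 and 233 normalized counts in Prm2+/+, 222, 203 and 242 in Prm2+/- and 257, 252 and 254 in Prm2-/-. All 3 values of Prm2-/- lay above the other 6. H2afx was thus the 1 member of 9 whose groups did not overlap between Prm2-/- and Prm2+/+, where 14.0% of all tested genes did not overlap, and the 1 of 9 between Prm2-/- and Prm2+/-, where 14.7% did not. Between Prm2+/- and Prm2+/+ it was 0 of 9, beside 9.44% of all genes. The means were 231 ± 2.78, 222 ± 19.7 and 254 ± 2.77 (SD, n = 3 each), and neither LFC passed the test: 0.14 for Prm2-/- against Prm2+/+ (95% interval -0.08 to 0.35, adjusted p = 0.751 in limma) and 0.20 for Prm2-/- against Prm2+/- (-0.02 to 0.41, adjusted p = 0.947 in limma). Within Prm2+/+ and within Prm2-/- the coefficients of variation, 1.20% and 1.09%, were below the 6.45% of counting alone.

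Mdc1, the reader of phosphorylated H2AX, lies on chromosome 17 from 35841515 to 35859670 on the plus strand, in 16 merged exons. It had 425, 495 and 276 normalized counts in Prm2+/+, 454, 513 and 412 in Prm2+/- and 478, 428 and 486 in Prm2-/-. The other 8 values lay between 412 and 513, so replicate 3 of Prm2+/+ alone was low. The means were 399 ± 112, 460 ± 51.0 and 464 ± 31.3 (SD, n = 3 each), and the LFC of Prm2-/- against Prm2+/+ was 0.26 (95% interval -0.22 to 0.73, adjusted p = 0.759 in limma). Without that library it was 0.015. The pair of Mdc1 and Parp2 had the highest r of the 45 pairs of members, 0.89, and r was -0.34 without replicate 3 of Prm2+/+. Over all pairs r had a median of -0.075 and ranged from -0.79 to 0.89.

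Xrcc1, the scaffold of single-strand break repair that is drawn to ADP-ribose chains, lies on chromosome 7 from 24546289 to 24573440 on the plus strand, in 18 merged exons. Its normalized counts were 301, 263 and 385 in Prm2+/+, 315, 308 and 330 in Prm2+/- and 343, 321 and 345 in Prm2-/-. Prm2+/+ held both the lowest and the highest value, whereas the other genotypes were narrower. With means of 316 ± 62.3, 318 ± 11.1 and 336 ± 13.7 (SD, n = 3 each), the LFC of Prm2-/- against Prm2+/+ was 0.11 (95% interval -0.21 to 0.43, adjusted p = 0.841 in limma). It was 0.26 without replicate 3 and -0.018 without replicate 2 of Prm2+/+.

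Xrcc5, the gene of Ku80, lies on chromosome 1 from 72307421 to 72394952 on the plus strand, in 21 merged exons. It had 93.1, 68.6 and 38.7 normalized counts in Prm2+/+, 52.4, 55.7 and 61.9 in Prm2+/- and 60.7, 58.9 and 54.9 in Prm2-/-. Here too the extremes of all 9 libraries were both Prm2+/+, replicate 1 at the top and replicate 3 at the bottom. The means were 66.8 ± 27.3, 56.7 ± 4.80 and 58.1 ± 2.95 (SD, n = 3 each). The LFC of Prm2-/- against Prm2+/+ was -0.11 (95% interval -0.77 to 0.55, adjusted p = 0.935 in limma), and it went to -0.45 without replicate 3 and to 0.17 without replicate 1 of Prm2+/+.

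Xrcc6, the gene of Ku70, lies on chromosome 15 from 81987835 to 82040085 on the plus strand, in 15 merged exons, and overlaps Desi1 on the opposite strand. It had 42.8, 43.9 and 35.4 normalized counts in Prm2+/+, 48.4, 41.1 and 48.6 in Prm2+/- and 59.8, 56.8 and 42.2 in Prm2-/-. Replicates 1 and 2 of Prm2-/- were the highest of the 9, and replicate 3 of Prm2-/- lay within the range of Prm2+/+. The means were 40.7 ± 4.65, 46.0 ± 4.28 and 52.9 ± 9.39 (SD, n = 3 each). Its LFC of 0.36 for Prm2-/- against Prm2+/+ (95% interval -0.05 to 0.77) had the smallest p of the members in that comparison, 0.0772 in limma before adjustment and 0.716 after it. Although their proteins work as a heterodimer, Xrcc5 and Xrcc6 had an r of 0.28 over the 9 libraries and of -0.22 without replicate 3 of Prm2+/+. The difference Xrcc5 minus Xrcc6 on the log2 scale, not per length, was 0.62 ± 0.490 in Prm2+/+, 0.29 ± 0.165 in Prm2+/- and 0.15 ± 0.194 in Prm2-/- (SD, n = 3 each).

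**Figure D4:**
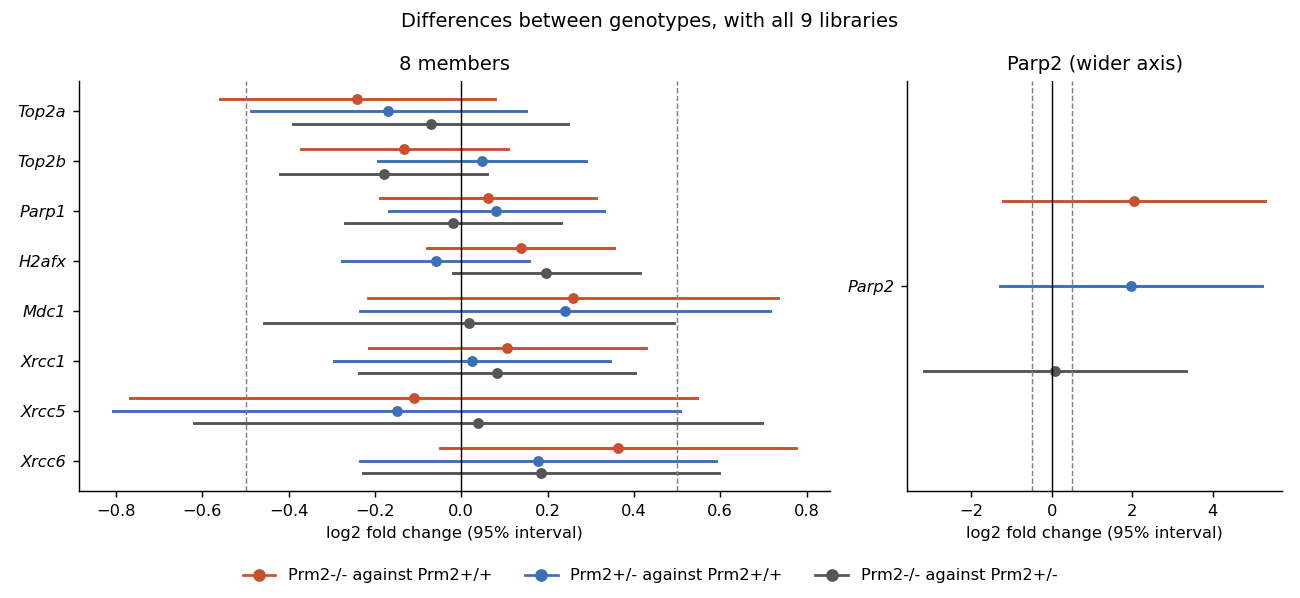
LFC (points, x axis) with 95% intervals (lines) of the 9 tested members for the 3 comparisons between genotypes, with 8 members on the left and Parp2 on a wider axis on the right. The solid line is at 0 and the dashed lines at the call threshold of 0.5 in either direction, and each of the 27 intervals contains 0.

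Replicate 3 of Prm2+/+ held the lowest value of the 9 libraries for 4 members, Parp2, Mdc1, Xrcc5 and Xrcc6, and the highest for 3, Top2a, Parg and Xrcc1. No other library held more than 3 of these extremes. Without it, the LFCs between Prm2-/- and Prm2+/+ ranged from -0.45 for Xrcc5 to 0.27 for Xrcc6, and 0 members were called. In that fit Xrcc1 and Xrcc5 had an unadjusted p under 0.05 in limma (0.0257 and 0.0271), which adjustment raised to 0.543 and 0.551. Between Prm2+/- and Prm2+/+ the same was so for Xrcc5 (0.0193, adjusted p = 0.976 in limma).

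The other genes of these pathways were taken from 5 lists of 68 genes, of which 64 were found in the table and 53 could be tested. Top6bl, Parp10, Paxx and Rnf8 were not analysed here. Limma called 0 of the 53 in each comparison. Between Prm2-/- and Prm2+/+, 3 of 53 had an unadjusted p under 0.05, beside the 7.33% of all genes given above, and 10 of 53 did not overlap, beside 14.0%. For Prm2+/- against Prm2+/+ these counts were 1 and 3, beside 4.24% and 9.44% of all genes, and for Prm2-/- against Prm2+/- 3 and 5, beside 5.44% and 14.7%. Named after their values were seen, the genes with an unadjusted p under 0.05 were Ung, Aptx and Trp53bp1 in the first comparison, Tnks in the second and Ung, Aptx and Oard1 in the third. Those without overlap in the second were Tnks, Chd1l and Trp53bp1. The edgeR test called 0 in each comparison, with 4, 2 and 3 genes at an unadjusted p under 0.05. DESeq2 called 1 lower gene in each: Spo11 against Prm2+/+ in both comparisons, and Ung between Prm2-/- and Prm2+/-.

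The list of topoisomerases and enzymes that remove their DNA adducts also held Topbp1, which is neither. Of this list, 6 genes were tested and their median LFC between Prm2-/- and Prm2+/+ was 0.03. Top1, the type I enzyme that cuts 1 strand, had the highest mean normalized count of them and the smallest p. Such means are not corrected for length in any of these lists and served only to choose a gene to show. It had 1136, 1109 and 1109 normalized counts in Prm2+/+, 1105, 1171 and 1030 in Prm2+/- and 1106, 1027 and 971 in Prm2-/-. The highest Prm2-/- library lay just below the lowest Prm2+/+ library, so these groups did not overlap, and the LFC was -0.11 (95% interval -0.30 to 0.07, adjusted p = 0.751 in limma). Spo11, the topoisomerase-like enzyme that makes the programmed breaks of meiosis, is named after its values were seen. It had 9.50, 151 and 156 normalized counts in Prm2+/+ and between 3.62 and 9.13 in the other 6 libraries, so replicate 1 of Prm2+/+ lay near the other genotypes, and it was too low in too many libraries to be tested with limma. In DESeq2 its LFC was -4.22 for Prm2-/- against Prm2+/+ (adjusted p = 0.00285) and -3.97 for Prm2+/- against Prm2+/+ (adjusted p = 0.0123).

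Among the genes of ADP-ribose transfer and removal, 17 were tested and 11 of them had a higher fitted mean in Prm2-/- than in Prm2+/+, with a median LFC of 0.20. Tnks, a tankyrase, had the highest mean count of the list, with means of 539 ± 19.8, 448 ± 53.7 and 509 ± 4.56 normalized counts in Prm2+/+, Prm2+/- and Prm2-/- (SD, n = 3 each). Its values did not overlap between any pair of genotypes, with an LFC of -0.27 for Prm2+/- against Prm2+/+ (adjusted p = 0.842 in limma). Macrod2, which removes single ADP-ribose units, had the smallest p of the list for Prm2-/- against Prm2+/+, an LFC of 0.43 (95% interval -0.13 to 0.98, adjusted p = 0.727 in limma). Hpf1 and Macrod1 showed a 2-level pattern and are named after their values were seen. Hpf1, the partner that lets PARP1 and PARP2 modify serine, had 21.0 normalized counts in replicate 3 of Prm2+/+, the library in which Parp2 was listed at 0, and between 111 and 226 in the other 8. Macrod1 was listed at 0 in 4 libraries, replicates 1 and 3 of Prm2+/+ and of Prm2+/-, and had between 22.3 and 88.9 in the other 5.

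Of single-strand break and base excision repair, 7 genes were tested, with a median LFC of -0.07 between Prm2-/- and Prm2+/+. Polb, the repair polymerase of this pathway, had the highest mean count of the list, with 1004 ± 132, 970 ± 60.5 and 952 ± 27.5 normalized counts in Prm2+/+, Prm2+/- and Prm2-/- (SD, n = 3 each; LFC of Prm2-/- against Prm2+/+ -0.07, adjusted p = 0.870 in limma). Ung, the glycosylase that takes uracil out of DNA, had the smallest p of the list. It had 15.2, 51.4 and 90.6 normalized counts in Prm2+/+, 63.3, 62.1 and 54.8 in Prm2+/- and 6.34, 11.2 and 16.9 in Prm2-/-. Replicate 1 of Prm2+/+ lay within the range of Prm2-/-, while Prm2+/- lay above it throughout. The LFC was -1.87 against Prm2+/+ (95% interval -3.26 to -0.48, adjusted p = 0.574 in limma) and -2.38 against Prm2+/- (-3.77 to -0.99, adjusted p = 0.612 in limma). DESeq2 called the latter (LFC -2.40, adjusted p = 0.0434). Aptx, which resolves abortive ligations, had an LFC of 0.57 against Prm2+/+ and of 0.64 against Prm2+/- (adjusted p = 0.669 and 0.878 in limma), with 128, 138 and 135 normalized counts in Prm2-/- above 58.5 to 105 in the other 6 libraries, and is named after its values were seen. Ogg1, also named after its values were seen, had 113 normalized counts in replicate 3 of Prm2+/+ and at most 3.04 in any other library.

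In the list of non-homologous end joining, which also held Polq of alternative end joining, 7 genes were tested. Their median LFC between Prm2-/- and Prm2+/+ was 0.03. Poll, a polymerase that fills gaps at joined ends, had both the highest mean count of the list and the smallest p, with 272 ± 63.9, 226 ± 28.0 and 208 ± 31.8 normalized counts in Prm2+/+, Prm2+/- and Prm2-/- (SD, n = 3 each) and an LFC of -0.37 (95% interval -0.82 to 0.07, adjusted p = 0.719 in limma). Of break signalling, 16 genes were tested, with a median LFC of 0.05. Rif1, which acts with 53BP1 at double-strand breaks, had the highest mean count of the list, with 1246 ± 134, 1248 ± 92.1 and 1074 ± 67.5 normalized counts in the same order (LFC of Prm2-/- against Prm2+/+ -0.21, adjusted p = 0.716 in limma). Trp53bp1, the gene of 53BP1 itself, had the smallest p of that list. Its normalized counts were 39.9, 51.4 and 55.2 in Prm2+/+, 60.3, 58.5 and 67.2 in Prm2+/- and 65.2, 78.1 and 63.4 in Prm2-/-, and both mutant genotypes lay above Prm2+/+. The LFC was 0.49 for Prm2-/- (95% interval 0.12 to 0.87, adjusted p = 0.589 in limma) and 0.35 for Prm2+/- (adjusted p = 0.842 in limma). Mre11a had 12.9 normalized counts in replicate 2 of Prm2+/+ and between 118 and 157 in the other 8 libraries, and Brca2 lay between 64.5 and 89.5 in 5 libraries and between 233 and 254 in 4, with both levels present in each genotype. These 2 genes are named after their values were seen.

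**Figure D5:**
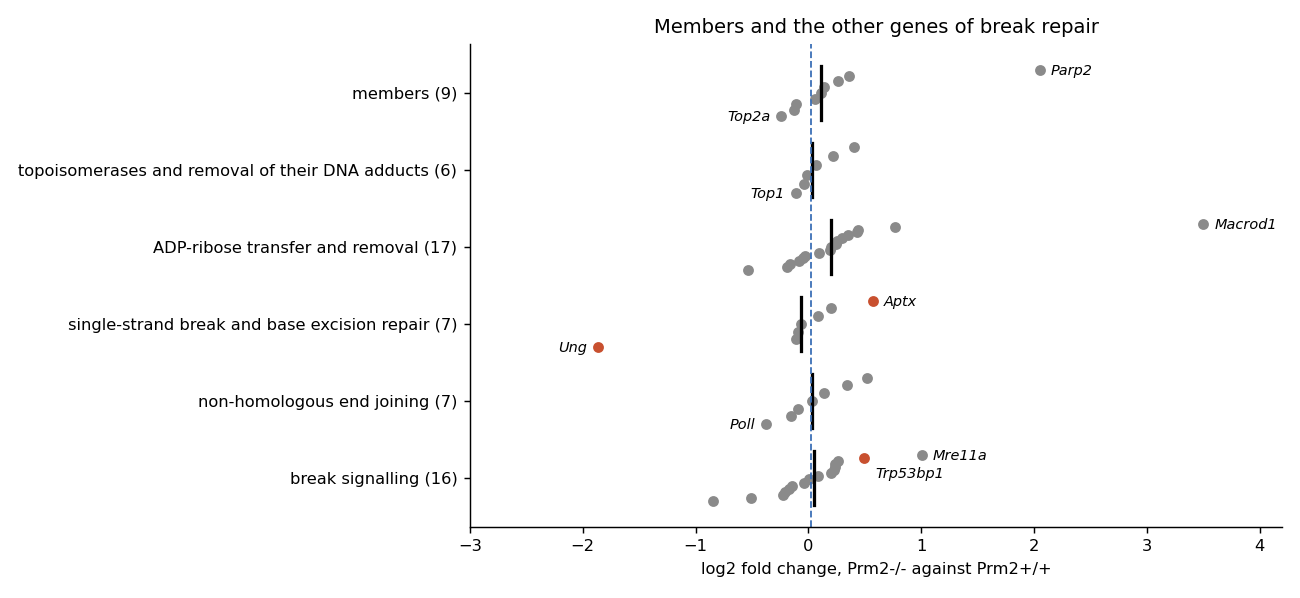
LFC of Prm2-/- against Prm2+/+ (x axis) for the 9 tested members and the 53 tested genes of the 5 lists (rows, with the number tested). Black bars are medians, the dashed line is the median of all tested genes at 0.02, orange points have an unadjusted p under 0.05 (Ung, Aptx and Trp53bp1) and 0 points were called.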

How the data were processed

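Total RNA of testes freed of the tunica albuginea was made into QuantSeq 3′ libraries and sequenced. The authors trimmed reads with Trim Galore 0.4.5, aligned them against GRCm38 using HISAT2 2.1, estimated transcript abundance in StringTie 1.3.3, derived gene-level counts with the script of that package, removed pseudogenes and used DESeq2, as the paper and the submitters' processing notes state. That script turns coverage into counts with a read length that is set by the user, and the value set is not given in the sources used here, so the counts may differ in scale from reads. The deposited values are a signal, namely counts divided by 1 size factor per library. All values were whole multiples of 1 step (100% within 0.01), which gave back the counts; in replicate 1 of Prm2+/- the step is close to 1, a weaker sign. Recovered totals were 3629929 to 4490411, and any limit taken from a count covers counting error alone. All 10 members and 22839 of the 38685 rows carried an identifier of an assembled locus, and 0 columns lacked a sample.

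Genes kept by filterByExpr (14893) were tested with limma 3.58.1 (lmFit, eBayes with trend) on log2(normalized count + 1), with genotype as the only term. Alternatives, run with edgeR 4.0.16, DESeq2 1.42.0 and R 4.3.3, covered the scaling, pseudocount, filter, samples, test, a replicate block and leaving out each library. Tables were made in Python 3.11.15 with pandas 2.3.3 and numpy 2.4.6, and figures with matplotlib 3.10.9. Scripts were tested on simulated data. GENCODE M21 and RefSeq gave positions and promoters; 38520 rows (99.6%) matched GENCODE. The members, the gene lists and the tests were chosen with earlier results of these data known. Named are the members, Prm2, the genes most like the most variable member, called list genes, and the list genes with the smallest p or the highest mean; any other is marked as named after its values were seen. Chi-square values per degree of freedom of 12.1 to 28.0 between replicates of a genotype gave no sign of a library deposited in duplicate.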

Additional observations from a re-analysis of the deposited data

How the results depend on the processing

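The count of members called stayed at 0 in the 3 comparisons under every alternative run. Parp2 gave no value where every sample had to hold 10 counts, and Parg was tested only without the filter, in DESeq2 and in some fits that left out a library. The count of pathway genes called, 0 in each comparison, was 1 with DESeq2 in each, and between 0 and 2 (Prm2-/- against Prm2+/+) or 0 and 1 (Prm2+/- against Prm2+/+) with a library left out. Spo11 was called in both without replicate 1 of Prm2+/+ (LFC -4.63 and -4.38). Over all genes, calls between Prm2-/- and Prm2+/+ went from 27 to 138 with DESeq2, to 9 with at least 10 counts in every sample, to 50 with only the 6 samples compared and up to 64 without replicate 2 of Prm2+/+. Those between Prm2+/- and Prm2+/+ went from 12 to 66, to 1, to 11 and up to 44, and to 21 without a filter. Those between Prm2-/- and Prm2+/- went from 26 to 113, to 11, to 52 and up to 50 without replicate 1 of Prm2+/-. The cause was not tested.

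The same replicate number did not pair the libraries. Deviations from the genotype means correlated between -0.037 and 0.042 for same-numbered libraries (9 pairs) and between -0.038 and 0.046 for the others (18 pairs). With the replicate block, 0 members and 0 pathway genes were called, and 15, 6 and 14 genes in all in the 3 comparisons.

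Of the members' LFCs under alternatives, 465 kept their direction and stayed uncalled and 18 turned, all of these with 1 library left out. Part of the 465 was fixed in advance. The filters, the fit on only the 6 samples compared and the replicate block leave the LFC itself unchanged. So does leaving out a library of the genotype that is not compared. An unadjusted p under 0.05 appeared for members only with a replicate 3 left out: for 2 and 1 members without that of Prm2+/+ (against Prm2+/+, in Prm2-/- and Prm2+/-), for Xrcc6 without that of Prm2-/- (LFC 0.51 against Prm2+/+, adjusted p = 0.808 in limma) and for H2afx without that of Prm2+/- (LFC 0.26 between Prm2-/- and Prm2+/-, adjusted p = 0.9998 in limma). With each library left out in turn, the LFC of Prm2-/- against Prm2+/+ ranged from -0.00093 to 0.13 for Parp1, from -0.018 to 0.26 for Xrcc1 and from -0.45 to 0.17 for Xrcc5. That of Prm2+/- against Prm2+/+ ranged from -0.12 to 0.0052 for H2afx, from -0.0026 to 0.42 for Mdc1, from -0.10 to 0.17 for Xrcc1 and from -0.49 to 0.13 for Xrcc5. That of Prm2-/- against Prm2+/- ranged from -0.14 to 0.038 for Top2a, from -0.059 to 0.052 for Parp1, from -0.070 to 0.26 for Parp2, from -0.059 to 0.100 for Mdc1 and from -0.015 to 0.10 for Xrcc5. Depth limits the statements on Parg, at 2 to 11 counts a library, and on Xrcc6, at 32 to 66. Bulk testis and 3 libraries per genotype limit the rest.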
